A study of Mus musculus with 8 samples.

Results

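Interferon-stimulated genes are the genes that a cell transcribes when it senses interferon, and many of their products sense foreign nucleic acid or block a step of virus growth. They were followed here in MH-S cells, a mouse alveolar macrophage cell line. A gene was included by its symbol, from a list of 52 genes known for induction by interferon. The deposited table held 50 of these 52 among 17518 genes, and 46 had enough reads to be tested. Mx1 and Mx2 were not analysed here. The study compared 3 groups of MH-S cells by sequencing of poly(A)-selected RNA. The 3 control libraries came from cells given PBS, the 2 LPS libraries from cells given lipopolysaccharide (LPS, the bacterial outer membrane component sensed by TLR4), and the 3 LPS+RCMNs libraries from cells given LPS together with RCMNs. RCMNs is the submitters' abbreviation and is used as given. The series text states 100 ng/mL LPS and 1 µg/mL RCMNs for the combined treatment, while the dose of LPS alone and the time of exposure were not given in the sources used here. Cells given RCMNs without LPS were not analysed here. All groups are 1 cell line, and no label states that replicates came from different cultures. The p-values therefore measure only the spread between these libraries, which may be technical.

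Type I interferons, which include interferon beta and the interferon alphas, bind a receptor made of IFNAR1 and IFNAR2. The kinases JAK1 and TYK2 then activate STAT proteins, STAT2 among them, which join IRF9 and bind the interferon-stimulated response element (ISRE) in target promoters. Interferon gamma uses its own receptor, and its signal reaches a different element, the gamma-activated site (GAS). In macrophages LPS can start this loop through TLR4, the adaptor TRIF and the kinases TBK1 and IKK-epsilon, which lead to transcription of interferon beta.

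The libraries held 18.6 to 21.2 M read counts, and 3 counts corresponded to 0.130 to 0.182 CPM (read counts scaled to library size, here with TMM). The scaling factors were 0.779 and 0.803 in the LPS libraries and 1.05 to 1.13 in the other libraries. All 8 macrophage markers examined were tested, with summed levels of 4759 to 5730 CPM in control, 5599 to 6836 CPM in LPS and 6491 to 8105 CPM in LPS+RCMNs libraries. Of 6 markers of alveolar macrophages 2 passed the filter on low counts, and all but Itgax were at or below 1.32 CPM in every library, Chil3 and Car4 among them at 0 in the control and LPS+RCMNs libraries. The alveolar label was therefore not borne out by these markers, whereas the macrophage label was. Erythroid markers summed to 4358 and 5623 CPM in the LPS libraries and to 0.658 to 34.1 CPM in the other libraries. Neutrophil markers summed to 5.09 and 5.33 CPM in the LPS libraries and to at most 0.709 CPM elsewhere, while lymphocyte markers reached at most 1.03 CPM and epithelial markers at most 0.363 CPM. The plasmacytoid dendritic cell list summed to 27.6 to 108 CPM, nearly all from Tcf4, with the defining marker Siglech at or below 1.12 CPM and at 0 in both LPS libraries. The part of these other markers in the differences below was not tested.

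The promoters of these genes were searched for the letters of the ISRE and the GAS. The list was chosen for induction by interferon, which acts through these elements, so the shares describe the list and are not an independent trait. RefSeq promoter windows (GRCm38.p6, 250 bases before to 50 bases after each start) were found for 40 of the 50 genes. The core letters of the ISRE, GAAANNGAAA on either strand, were present in 22 of the 40 genes (55.0%), against 3.99% of all 27025 genes with a window and 3.87% of the genes tested here that had a window. The core letters of the GAS, TTCNNNGAA, which is its own reverse complement, were present in 14 of 40 (35.0%), against 9.55% of all genes. Both were found in 8 of the 40 genes, the ISRE letters alone in 14, the GAS letters alone in 6 and neither in 12. More than 1 ISRE match was found in 9 genes, with 3 overlapping matches in Isg15. A match describes the letters in the window and is not a measured binding site.

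The stretches below are 70 bases each, written 5′ to 3′ on the strand of the gene, with matches to GAAANNGAAA or its reverse complement TTTCNNTTTC in capitals. The first 7 belong to genes with higher counts after LPS, and the last 3 show that the same letters also occur in genes without a rise after LPS.
Isg15, chr4:156200837-156200906, minus strand: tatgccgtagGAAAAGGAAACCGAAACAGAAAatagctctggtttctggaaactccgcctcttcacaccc
Ifit1, chr19:34640775-34640844, plus strand: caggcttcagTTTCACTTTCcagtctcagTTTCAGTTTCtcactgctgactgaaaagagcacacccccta
Ifit3, chr19:34583363-34583432, plus strand: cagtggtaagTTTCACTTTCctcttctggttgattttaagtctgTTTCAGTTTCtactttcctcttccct
Ifit3b, chr19:34607759-34607828, plus strand: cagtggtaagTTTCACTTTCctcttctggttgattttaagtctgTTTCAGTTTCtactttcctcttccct
Gbp2, chr3:142620593-142620662, plus strand: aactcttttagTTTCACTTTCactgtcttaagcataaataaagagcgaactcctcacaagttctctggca
Bst2, chr8:71537543-71537612, minus strand: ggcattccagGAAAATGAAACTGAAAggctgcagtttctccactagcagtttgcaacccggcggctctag
Rsad2, chr12:26456513-26456582, minus strand: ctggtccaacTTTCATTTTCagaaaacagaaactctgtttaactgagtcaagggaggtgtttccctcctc
Oas3, chr5:120777675-120777744, minus strand: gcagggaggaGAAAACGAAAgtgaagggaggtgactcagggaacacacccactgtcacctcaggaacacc
Irgm2, chr11:58214903-58214972, plus strand: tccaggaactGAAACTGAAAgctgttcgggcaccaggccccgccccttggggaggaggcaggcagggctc
Stat2, chr10:128270266-128270335, plus strand: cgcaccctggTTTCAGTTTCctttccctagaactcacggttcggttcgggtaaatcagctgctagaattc
The Ifit3 and Ifit3b stretches were identical at 70 of 70 bases, while their whole windows matched at 201 of 268 aligned bases (75.0%).

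After LPS, most of the set differed from control, and the larger changes were increases. Of the 46 tested members, 28 were called higher and 7 lower (76.1%), against 63.4% of all 11911 genes tested. A call is an adjusted p below 0.05 in edgeR's quasi-likelihood test. Over all genes 31.4% were called higher and 32.1% lower. The median log2 fold change of the 46 members was 0.63, against -0.04 over all genes. The range ran from -0.99 for Dtx3l to 3.94 for Isg15. The 2 LPS libraries lay above all 3 control libraries for 29 members (37.5% of all genes) and below them for 9 (38.6% of all genes). With limma on log2(FPKM + 1) the median of all genes shifted to -0.33, and 26.3% of all calls were higher in place of 49.5%. On that scale 19 members were called higher and 10 lower (63%, below the 67.5% of all genes called). The LPS libraries were also those with high erythroid markers, whose part was not tested. In bulk RNA, fewer cells with a transcript and less of it per cell cannot be told apart.

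With RCMNs added to LPS, the comparison with LPS alone went both ways. Here 9 members were called higher and 11 lower than in the LPS libraries (43.5%), which was below the 59.3% called over all genes. The median log2 fold change was -0.19, against 0.03 over all genes. On log2(FPKM + 1) the share of higher calls over all genes was 72% in place of 50.3%, and the members' median turned to 0.18. On that scale 15 members were called higher and 7 lower (47.8%, below the 63.5% of all genes called). The LPS+RCMNs libraries lay above both LPS libraries for 11 members (38% of all genes) and below them for 20 (36.9% of all genes). Against control, LPS+RCMNs libraries had 14 members called higher, which was 30.4% of the members against 7.56% of all genes in either direction and 4.33% of all genes called higher. No member was called lower by edgeR, DESeq2 or limma, against 3.23% of all genes called lower by edgeR, and 1 member, Irf1, had a log2 fold change below 0 at an unadjusted p of 0.0263 in edgeR. The median log2 fold change against control was 0.52, against -0.02 over all genes. On log2(FPKM + 1), 9 members were called higher (19.6%, against 8.16% of all genes called in either direction). Of all calls, 41.9% were then higher in place of 57.3%. The LPS+RCMNs libraries lay above all control libraries for 22 members (14.1% of all genes) and below them for 1 (15.7% of all genes). The comparisons share libraries: both comparisons with control use the same 3 control libraries, and both that involve LPS alone use the same 2 LPS libraries, so their values are set side by side without a test of overlap.

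**Figure D1:**
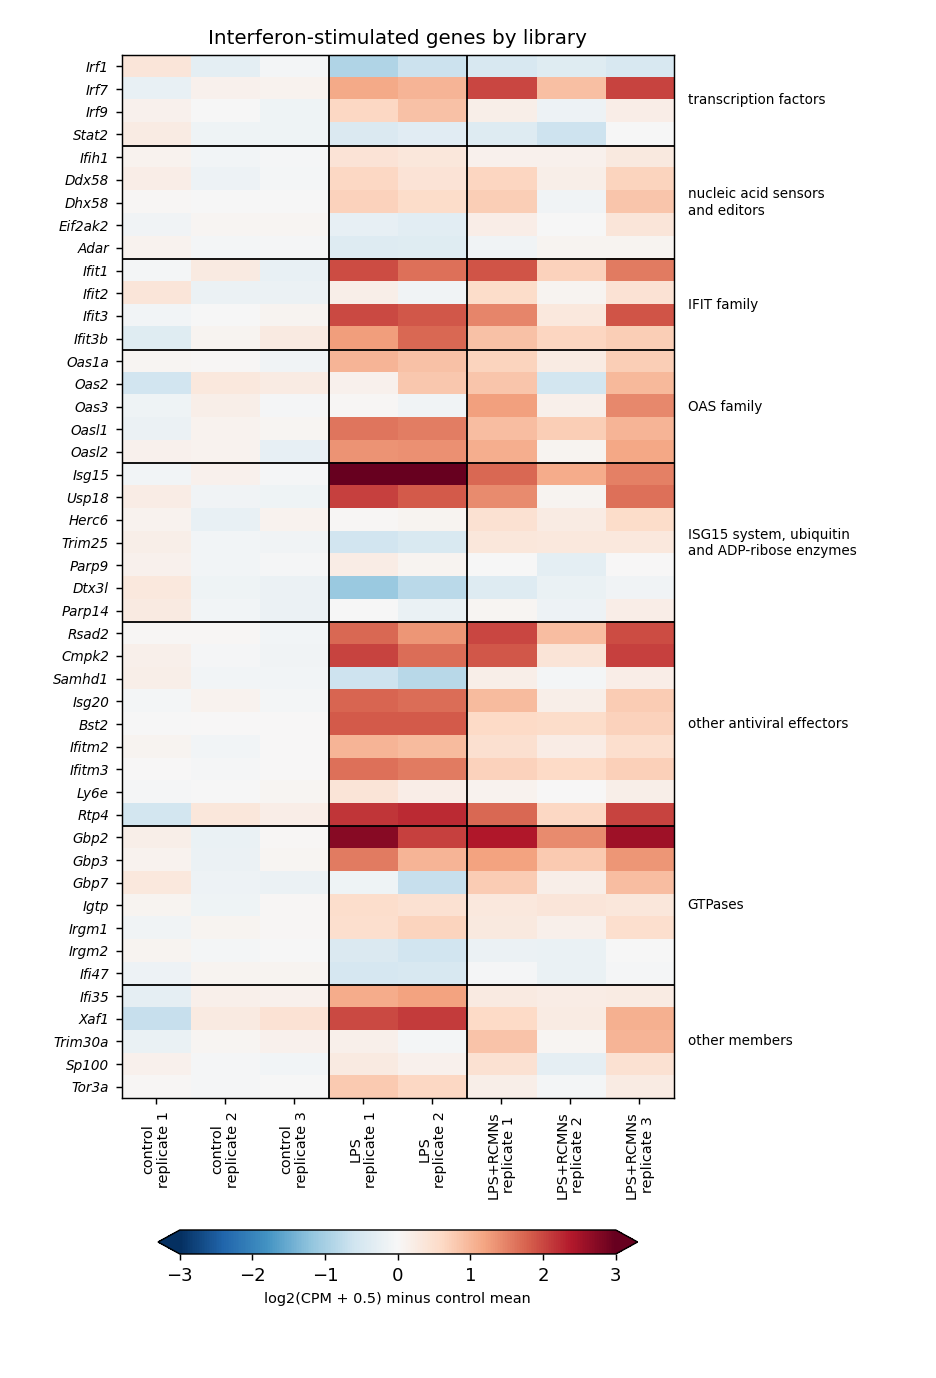
Heat map of the 46 tested members (rows, grouped by role) in the 8 libraries (columns), coloured by log2(CPM + 0.5) minus the control mean. The LPS columns are red for most antiviral effectors and blue for Irf1, Dtx3l and Samhd1, and LPS+RCMNs replicate 2 is paler than replicates 1 and 3 for Irf7, Cmpk2 and Usp18.

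When single libraries were left out, the count of calls against control for LPS+RCMNs spanned more members than the other counts did. It was 23 without LPS+RCMNs replicate 2 (50% of members, against 11.5% of all genes called in either direction). Without LPS+RCMNs replicate 1 or replicate 3 it was 7 (15.2%, against 2.95% and 2.59%). Without control replicate 2 or control replicate 3 it was 8 (17.4%, against 3.79% and 3.45%). With all libraries the shares were 30.4% and 7.56%, so the share of all genes moved in the same direction as that of the members. LPS+RCMNs replicate 2 was the lowest library of its group for 42 of 46 members (91.3%), against 43.7% of all genes. Its members had a median of 0.17 over the control mean on the log2 scale, against 0.62 and 0.69 in replicates 1 and 3 and 0.63 and 0.66 in the LPS libraries. Above every control library were 37 members in LPS+RCMNs replicate 1, 22 in replicate 2 and 38 in replicate 3. Of all genes, 30%, 31.3% and 29.1% lay above every control library in these replicates. For 37 members both replicates 1 and 3 lay above every control library, and replicate 2 was also above them for 22 of these and not for 15. The 15 were Irf9, Ddx58, Dhx58, Eif2ak2, Ifit2, Oas2, Oas3, Oasl2, Usp18, Ly6e, Gbp7, Xaf1, Trim30a, Sp100 and Tor3a. Over all genes, LPS+RCMNs replicate 2 and control replicate 1 stood apart, each being the lowest or the highest of its group for 43.7% to 44.4% of genes. They were picked from these same data for being extreme, so leaving them out narrows the spread. It also raises the LPS+RCMNs level of most members, for which replicate 2 was lowest. Values here and below without these 2 libraries therefore describe dependence on them and are not independent evidence. Without both, 35 members were called higher than control after LPS+RCMNs (76.1%, against 25.3% of all genes called in either direction). After LPS 30 were then called higher and 8 lower (82.6%, against 74.5% of all genes), and in LPS+RCMNs against LPS 15 were higher and 14 lower (63%, below the 73.4% of all genes).

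The counts by role that follow stand against 63.4% of all genes called after LPS, 59.3% from LPS to LPS+RCMNs and 7.56% in LPS+RCMNs against control. Among the 4 transcription factors, Irf7 and Irf9 were called higher after LPS and Irf1 was lower. Irf7, which amplifies interferon production once interferon has been sensed, was at 9.97, 12.9 and 12.7 CPM in the control libraries, 26.5 and 24.4 CPM in the LPS libraries, and 48.9, 22.6 and 49.99 CPM in the LPS+RCMNs libraries. All treated libraries lay above control, and the value of LPS+RCMNs replicate 2 was beneath both LPS values. Its log2 fold change against control was 1.10 ± 0.30 (SE, adjusted p = 0.0101) after LPS and 1.77 ± 0.27 (adjusted p = 0.00601) after LPS+RCMNs. With a trend of the fold changes with gene length removed, the first of these was 0.72 (adjusted p = 0.073) and no longer called. The difference of LPS+RCMNs from LPS was 0.67 with a 95% interval from -0.01 to 1.35 (adjusted p = 0.0809), and 0.93 (adjusted p = 1.4e-06) without the 2 libraries that stood apart. Irf9, the DNA-binding partner of STAT2, was at 22.9, 20.8 and 19.04 CPM in control, 32.3 and 38.8 CPM in LPS and 23.6, 18.7 and 23.8 CPM in LPS+RCMNs libraries. The LPS libraries stood alone above the other 6, whose ranges overlapped. Irf9 rose by 0.76 ± 0.15 after LPS (adjusted p = 0.00164) and fell by 0.69 ± 0.15 from LPS to LPS+RCMNs (adjusted p = 0.00321). Irf1, an activator induced strongly by interferon gamma, fell by 0.82 ± 0.21 after LPS (adjusted p = 0.00769), from 10.5 to 16.8 CPM in control to 6.78 and 8.18 CPM. Stat2 did not pass the test in any comparison, with log2 fold changes from -0.41 to 0.07.

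Of the 5 tested sensors and editors of RNA, 3 were called higher and 1 lower after LPS, with Ifih1 (MDA5) at 0.39, Ddx58 (RIG-I) at 0.53 and Dhx58 (LGP2, a regulator of those sensors) at 0.65 on the log2 scale. For Ifih1 the sign turned to -0.06 when limma was run on log2(FPKM + 1). Dhx58 was at 8.97, 8.66 and 8.59 CPM in control, 14.5 and 12.96 CPM in LPS, and 14.96, 8.05 and 15.9 CPM in LPS+RCMNs libraries. LPS+RCMNs replicate 2 lay below every control library while replicates 1 and 3 lay above every LPS library. Its log2 fold change was 0.65 ± 0.26 after LPS (adjusted p = 0.049) and 0.57 ± 0.23 after LPS+RCMNs (adjusted p = 0.18). The call of Dhx58 after LPS was made in 8 of 19 alternative settings.

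Eif2ak2 encodes PKR, the kinase that stops translation on sensing viral RNA. It was at 70.2, 78.0 and 78.1 CPM in control, 63.9 and 60.1 CPM in LPS and 86.7, 74.6 and 96.6 CPM in LPS+RCMNs libraries. The LPS values were the lowest of all, and the control and LPS+RCMNs groups overlapped. It rose by 0.47 ± 0.12 from LPS to LPS+RCMNs (adjusted p = 0.00792). Adar, an RNA-editing enzyme that marks self RNA, was at 85.6, 77.1 and 78.0 CPM in control, 61.5 and 62.3 CPM in LPS and 74.9, 84.3 and 85.1 CPM in LPS+RCMNs libraries. Both LPS libraries again lay under all others. Adar fell by 0.38 ± 0.10 after LPS (adjusted p = 0.00777) and rose by 0.40 ± 0.10 from LPS to LPS+RCMNs (adjusted p = 0.00636). Both genes have long transcripts, and with a gene length trend removed the values turned to 0.34 for Adar after LPS, and to -0.19 for Eif2ak2 and -0.25 for Adar from LPS to LPS+RCMNs. Against control, the log2 fold changes of the 5 genes after LPS+RCMNs ran from 0.02 to 0.57 and did not pass.

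The IFIT proteins bind viral RNA that lacks the host cap structure. After LPS, 3 of the 4 genes were called higher, with Ifit1 at 2.29, Ifit3 at 2.45 and Ifit3b at 3.08 on the log2 scale. Ifit3b was at 0, 0.186 and 0.279 CPM in control, 1.03 and 1.64 CPM in LPS and 0.687, 0.506 and 0.577 CPM in LPS+RCMNs libraries. The 3 groups did not overlap, although the control values rest on 10 reads in all. Its rise after LPS was 3.08 ± 0.68 (adjusted p = 0.00326), and its difference after LPS+RCMNs was 1.91 ± 0.68 (adjusted p = 0.128). Ifit2, the most abundant of the family per length at 4.43 FPKM on average, behaved differently. It was at 19.5, 13.2 and 13.2 CPM in control, 16.9 and 13.8 CPM in LPS and 22.3, 16.0 and 20.3 CPM in LPS+RCMNs libraries. The 3 groups overlapped, and no comparison of Ifit2 passed the test, with 0.01 ± 0.22 after LPS and 0.36 ± 0.19 after LPS+RCMNs.

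Ifit1 and Ifit3 were called higher than control after LPS+RCMNs too, at 1.90 ± 0.39 (adjusted p = 0.0202) and 1.82 ± 0.44 (adjusted p = 0.041). Ifit1 was at 0.650 to 1.12 CPM in control, 4.66 and 3.70 CPM in LPS and 4.46, 1.67 and 3.41 CPM in LPS+RCMNs libraries. Ifit3 was at 0.737 to 0.883 CPM in control, 4.60 and 4.24 CPM in LPS and 3.09, 1.11 and 4.33 CPM in LPS+RCMNs libraries. LPS+RCMNs replicate 2 was the lowest treated library for both. Differences of LPS+RCMNs from LPS across the 4 genes ran from -1.17 to 0.35 and did not pass the test. Ifit3 and Ifit3b are near-identical neighbours on chromosome 19, so their separate values depend on how the authors' counting split shared reads.

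The OAS proteins make the messenger that activates RNase L, an RNA-degrading enzyme, and Oasl1 and Oasl2 are relatives of that family. Oas1a, Oasl1 and Oasl2 were called higher after LPS, and Oas3 was called higher in LPS+RCMNs than in LPS. Oasl1, which in mice restrains translation of Irf7, was at 40.0, 48.4 and 47.0 CPM in control, 137 and 132 CPM in LPS and 86.4, 75.8 and 91.8 CPM in LPS+RCMNs libraries. The groups did not overlap, and LPS+RCMNs lay between the others. Oasl1 rose by 1.58 ± 0.11 after LPS (adjusted p = 5.36e-06), fell by 0.67 ± 0.11 from LPS to LPS+RCMNs (adjusted p = 0.000832) and stayed 0.91 ± 0.10 above control (adjusted p = 0.00155). Oas3 was at 20.7, 25.6 and 22.3 CPM in control, 23.3 and 21.1 CPM in LPS and 54.2, 25.2 and 62.4 CPM in LPS+RCMNs libraries. Control and LPS overlapped, and LPS+RCMNs replicate 2 fell within the control range. Its difference from LPS was 1.09 ± 0.32 (adjusted p = 0.0161), which became 0.55 (adjusted p = 0.159) with the gene length trend removed. Its difference from control was 1.05 ± 0.28 (adjusted p = 0.0542), which became 1.31 (adjusted p = 8.64e-06) without the 2 libraries that stood apart. Oas2 did not pass in any comparison. Oas1a, a gene with close paralogs that could share reads, was called lower in LPS+RCMNs than in LPS at -0.39 ± 0.14 (adjusted p = 0.04), and this sign turned to 0.03 on FPKM.

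Isg15 had the largest change of the set. It encodes a ubiquitin-like protein that is conjugated to other proteins during the interferon response. Its values were 0.737, 0.931 and 0.790 CPM in control, 13.3 and 11.995 CPM in LPS and 3.88, 2.33 and 3.27 CPM in LPS+RCMNs libraries. The groups were far apart, with every LPS+RCMNs library between control and LPS. Isg15 rose by 3.94 ± 0.25 after LPS (adjusted p = 2.84e-06), a 15.3-fold rise. It fell by 2.0 ± 0.23 from LPS to LPS+RCMNs (adjusted p = 7.28e-05), where it remained 1.94 ± 0.25 above control (adjusted p = 0.0024). Isg15 has a short transcript, and with the gene length trend removed these changes were 2.67, -0.83 and 1.84, each still called.

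Usp18, the protease that removes ISG15 and dampens the interferon receptor, was at 5.55, 4.33 and 4.23 CPM in control, 20.9 and 17.9 CPM in LPS and 13.3, 4.96 and 15.9 CPM in LPS+RCMNs libraries. LPS+RCMNs replicate 2 fell within the control range. Usp18 rose by 2.04 ± 0.39 after LPS (adjusted p = 0.00146), and its difference after LPS+RCMNs was 1.28 ± 0.36 (adjusted p = 0.0677), which became 1.80 (adjusted p = 1.43e-05) without the 2 libraries that stood apart.

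Trim25, a ubiquitin ligase that activates RIG-I, moved the other way. It was at 230.0, 193 and 189 CPM in control, 136 and 149 CPM in LPS and 258, 252 and 253 CPM in LPS+RCMNs libraries. The LPS libraries were lowest and the LPS+RCMNs libraries highest, with no overlap. Trim25 fell by 0.52 ± 0.11 after LPS (adjusted p = 0.00241) and rose by 0.84 ± 0.11 from LPS to LPS+RCMNs (adjusted p = 0.000165). Its difference from control after LPS+RCMNs was 0.32 ± 0.09 (adjusted p = 0.079). With the gene length trend removed the first 2 values were 0.17 and 0.21, and neither was called.

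Dtx3l, a ubiquitin ligase that works with Parp9, fell by 0.99 ± 0.18 after LPS (adjusted p = 0.00119) and rose by 0.74 ± 0.18 from LPS to LPS+RCMNs (adjusted p = 0.00643). Removal of the gene length trend left -0.35 (adjusted p = 0.151) and 0.16 (adjusted p = 0.525), neither called. Parp9 itself did not pass in any comparison, with log2 fold changes from -0.25 to 0.15. The annotated genes overlap on chromosome 16, with Dtx3l at 35926515 to 35939027 and Parp9 at 35938470 to 35972621 (GRCm38.p6), and the strand setting of the counting was not given in the sources used here. Herc6 and Parp14 did not pass either, so 2 of these 7 genes were called higher and 2 lower after LPS.

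The remaining antiviral effectors were the group with most increases, with 8 of 9 called higher after LPS, 6 of 9 called higher than control after LPS+RCMNs, and 4 lower and 1 higher in LPS+RCMNs than in LPS. Called in either direction were 100%, 66.7% and 55.6% of the 9, against 63.4%, 7.56% and 59.3% of all genes. With the gene length trend removed, none of the 4 lower calls (Isg20, Bst2, Ifitm2 and Ifitm3) was left, and Ifitm2, Ifitm3 and Ly6e were no longer called higher after LPS. Ifitm3, which blocks fusion of virus with the endosome, was the most abundant member at 485 FPKM on average. It was at 178, 172 and 178 CPM in control, 555 and 524 CPM in LPS and 287, 266 and 288 CPM in LPS+RCMNs libraries. The groups did not overlap, and the LPS+RCMNs libraries lay between the others. Ifitm3 rose by 1.61 ± 0.08 after LPS (adjusted p = 1.09e-06), fell by 0.94 ± 0.08 from LPS to LPS+RCMNs (adjusted p = 1.85e-05) and was 0.67 ± 0.08 above control there (adjusted p = 0.00151). With the gene length trend removed, the changes after LPS and from LPS to LPS+RCMNs were 0.18 (adjusted p = 0.15) and, in the opposite direction, 0.37 (adjusted p = 0.0157), while the difference from control after LPS+RCMNs was 0.55 (adjusted p = 0.00597). Ifitm2 and Ifitm3 are close paralogs, and their values may share reads.

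Bst2 encodes tetherin, which holds budding virus on the cell surface. It was at 28.7, 28.9 and 28.9 CPM in control, 105 and 104 CPM in LPS and 43.8, 42.6 and 47.0 CPM in LPS+RCMNs libraries. Replicates were close and the groups far apart. Bst2 rose by 1.86 ± 0.09 after LPS (adjusted p = 8.83e-07), fell by 1.23 ± 0.09 from LPS to LPS+RCMNs (adjusted p = 5.35e-06) and was 0.62 ± 0.08 above control there (adjusted p = 0.0024). With the gene length trend removed, the change from LPS to LPS+RCMNs was -0.13 (adjusted p = 0.3), while the rise after LPS was 0.66 and the difference from control after LPS+RCMNs 0.53, both still called.

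Rsad2 encodes viperin, an enzyme that makes a chain-terminating nucleotide. Its values were 4.77, 4.75 and 4.37 CPM in control, 16.3 and 12.4 CPM in LPS and 20.02, 9.16 and 19.5 CPM in LPS+RCMNs libraries. All 5 treated libraries lay above control, and LPS+RCMNs replicate 2 was the lowest of them. Rsad2 rose by 1.63 ± 0.31 after LPS (adjusted p = 0.00137) and by 1.81 ± 0.28 after LPS+RCMNs (adjusted p = 0.00635), and the difference between the treatments was 0.18 with a 95% interval from -0.50 to 0.86. Cmpk2, its neighbour on chromosome 12 and a nucleotide kinase, rose by 2.05 ± 0.44 (adjusted p = 0.00276) and by 1.78 ± 0.40 (adjusted p = 0.0319). Rtp4, a chaperone-like protein with antiviral activity, was at 1.39, 2.98 and 2.65 CPM in control, 11.6 and 12.4 CPM in LPS and 8.54, 3.75 and 10.7 CPM in LPS+RCMNs libraries. All treated libraries again lay above control. Rtp4 rose by 2.36 ± 0.42 after LPS (adjusted p = 0.000949) and by 1.71 ± 0.39 after LPS+RCMNs (adjusted p = 0.0323). Its rise after LPS was 1.499, still called, once the gene length trend was removed.

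Isg20, an exonuclease that degrades viral RNA, was at 0.650, 0.791 and 0.650 CPM in control, 3.51 and 3.33 CPM in LPS and 1.82, 0.861 and 1.54 CPM in LPS+RCMNs libraries. The groups did not overlap. Isg20 rose by 2.29 ± 0.34 after LPS (adjusted p = 0.000319) and fell by 1.28 ± 0.32 from LPS to LPS+RCMNs (adjusted p = 0.00742), and its difference from control there was 1.01 ± 0.33 (adjusted p = 0.101). The rise was 1.37, still called, and the fall -0.42 (adjusted p = 0.331) with the gene length trend removed. Samhd1, which depletes the nucleotides that reverse transcription needs, was the effector that fell. It was at 207, 172 and 172 CPM in control, 119 and 103 CPM in LPS and 205, 176 and 210 CPM in LPS+RCMNs libraries. The LPS libraries were lowest and the other groups overlapped. Samhd1 fell by 0.72 ± 0.13 after LPS (adjusted p = 0.000934) and rose by 0.83 ± 0.13 from LPS to LPS+RCMNs (adjusted p = 0.000484), which became -0.43 and 0.53 with the gene length trend removed, both still called.

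**Figure D2:**
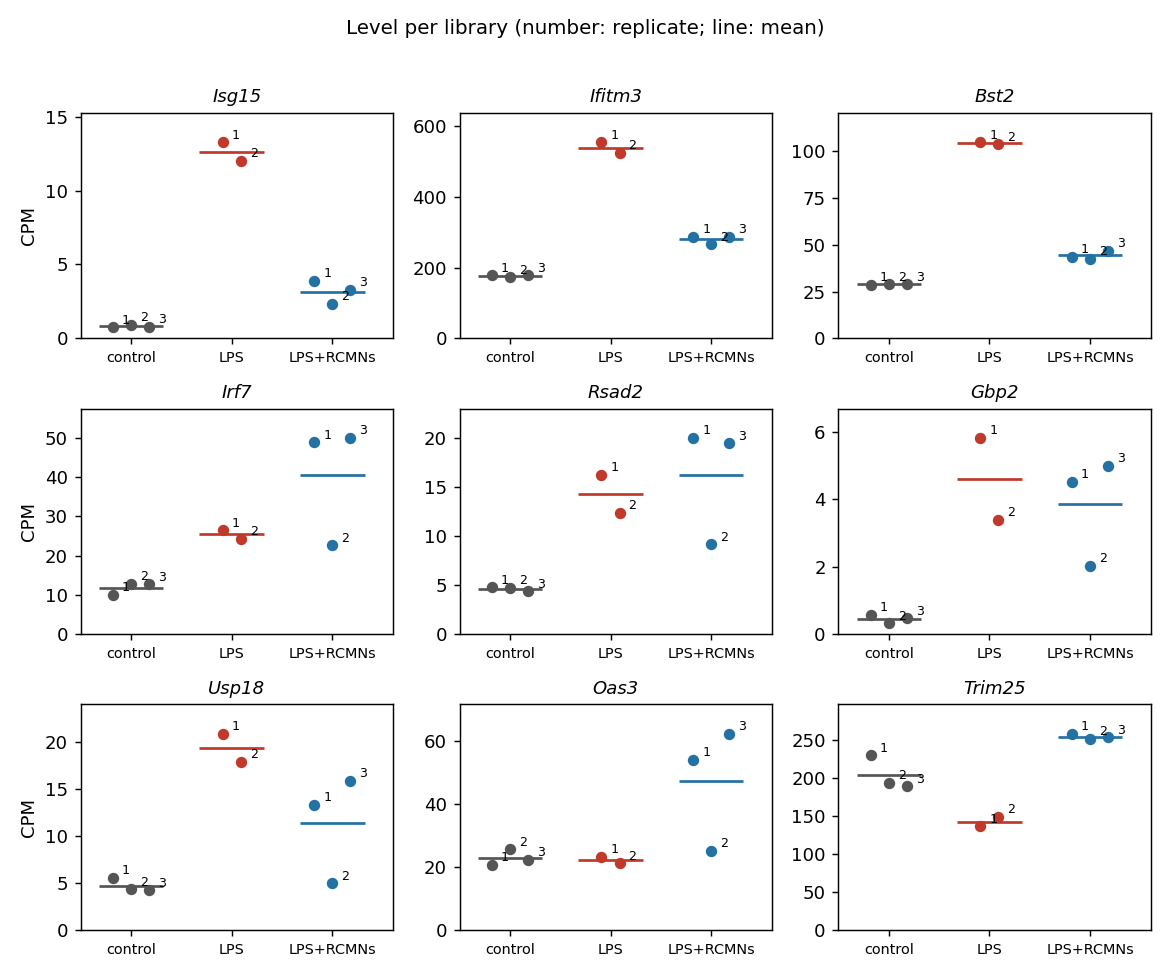
Level of 9 members in CPM (vertical axes from 0) in each library, with the replicate number beside each point and a line at the group mean. Isg15, Ifitm3 and Bst2 are highest in both LPS libraries, Irf7 and Oas3 are highest in LPS+RCMNs replicates 1 and 3, and Trim25 is lowest in LPS.

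The interferon-inducible GTPases act on membranes that surround intracellular microbes. Of the 7 tested, 4 were called higher and 2 lower after LPS (85.7%, against 63.4% of all genes), and 3 were called higher in LPS+RCMNs than in LPS (42.9%, against 59.3%). Gbp2, a guanylate-binding protein, was at 0.563, 0.326 and 0.464 CPM in control, 5.81 and 3.39 CPM in LPS and 4.51, 2.03 and 5.00 CPM in LPS+RCMNs libraries. All 5 treated libraries lay above control and the treated groups overlapped. Gbp2 rose by 3.33 ± 0.46 after LPS (adjusted p = 0.000209) and by 3.07 ± 0.43 after LPS+RCMNs (adjusted p = 0.00382). Gbp7 was at 4.16, 2.89 and 2.83 CPM in control, 2.91 and 1.82 CPM in LPS and 5.84, 3.75 and 6.63 CPM in LPS+RCMNs libraries. Its LPS+RCMNs values lay above both LPS values and overlapped control. Gbp7 rose by 1.19 ± 0.34 from LPS to LPS+RCMNs (adjusted p = 0.0127), which became 0.55 (adjusted p = 0.204) with the gene length trend removed.

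Irgm1, an immunity-related GTPase and the most abundant of these genes per length at 10.3 FPKM on average, was at 17.03, 19.4 and 18.9 CPM in control, 26.3 and 29.7 CPM in LPS and 22.9, 20.7 and 26.2 CPM in LPS+RCMNs libraries. Every treated library lay above control, and the LPS libraries above the LPS+RCMNs libraries. Irgm1 rose by 0.60 ± 0.14 after LPS (adjusted p = 0.00373), with 0.33 ± 0.12 after LPS+RCMNs (adjusted p = 0.142). Its relatives Irgm2 and Ifi47 fell by 0.54 ± 0.15 (adjusted p = 0.0129) and 0.52 ± 0.14 (adjusted p = 0.0107) after LPS and rose by 0.40 ± 0.15 (adjusted p = 0.0478) and 0.43 ± 0.14 (adjusted p = 0.0281) from LPS to LPS+RCMNs. Neither change of Irgm2 was called with the gene length trend removed (-0.30 and 0.16), and the rise of Irgm1 was 0.39, still called. Gbp and Irgm genes have close paralogs, and reads may be split between them. Gbp5 and Iigp1, together with the nucleic acid sensor Zbp1 and Ifi44, were too low to test and reached at most 0.545 CPM in any library.

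Of the 5 other members, Ifi35, Xaf1 and Tor3a were called higher after LPS and lower in LPS+RCMNs than in LPS. Xaf1, a protein linked to cell death after interferon, was at 2.21, 4.80 and 5.48 CPM in control, 16.8 and 18.4 CPM in LPS and 6.13, 4.76 and 8.75 CPM in LPS+RCMNs libraries. The LPS libraries stood far above the rest, and control overlapped with LPS+RCMNs. Xaf1 rose by 2.08 ± 0.35 after LPS (adjusted p = 0.000673) and fell by 1.42 ± 0.34 from LPS to LPS+RCMNs (adjusted p = 0.00577), a fall that was -0.87 (adjusted p = 0.0663) with the gene length trend removed. Trim30a, a TRIM protein that restrains inflammatory signalling, was at 11.6, 13.9 and 14.6 CPM in control, 14.8 and 12.7 CPM in LPS and 24.5, 13.8 and 27.3 CPM in LPS+RCMNs libraries. Replicates 1 and 3 of LPS+RCMNs were above all other libraries and replicate 2 was not. Its difference from control after LPS+RCMNs was 0.71 ± 0.23 (adjusted p = 0.104) and 0.05 ± 0.26 after LPS. Sp100, a protein of nuclear bodies, was at 54.5, 49.1 and 47.2 CPM in control, 60.6 and 55.1 CPM in LPS and 69.4, 41.5 and 69.2 CPM in LPS+RCMNs libraries. Its LPS+RCMNs replicate 2 was the lowest of all 8 libraries, and no comparison passed.

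**Figure D3:**
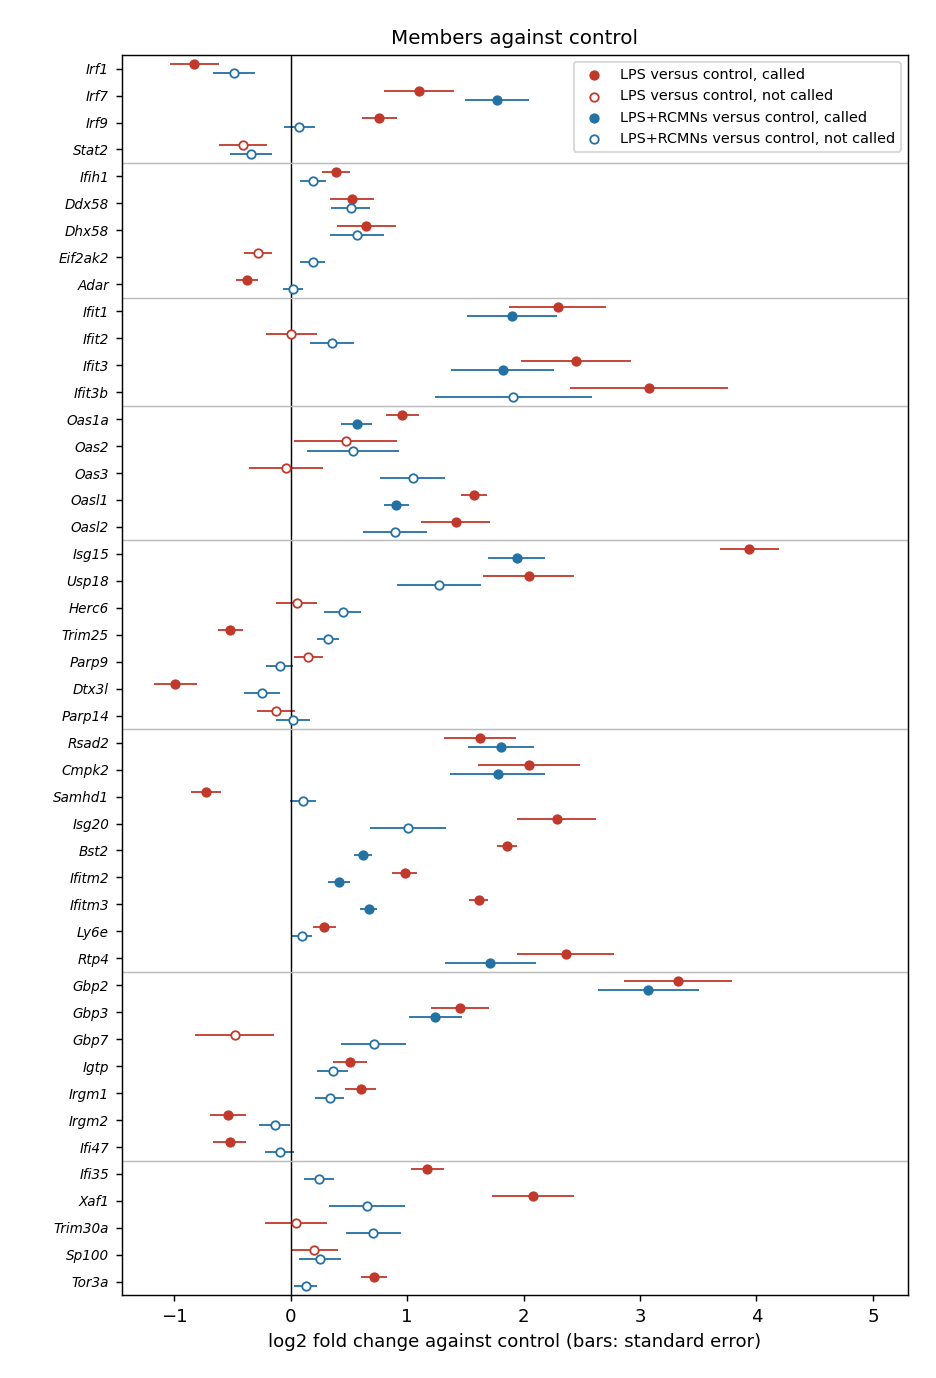
Log2 fold change against control of each tested member after LPS (red) and after LPS+RCMNs (blue), with bars for the standard error and filled points for calls at an adjusted p below 0.05. Isg15 and Gbp2 lie farthest to the right after LPS, and the only filled points left of 0 are 7 LPS values.

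Other genes of the pathway gave a mixed picture. Transcripts of interferon beta and interferon alpha 2 were not tested: Ifnb1 reached at most 0.0981 CPM and Ifna2 at most 0.0606 CPM, both within the level that 3 counts give. Of 26 other pathway genes tested, 7 were called higher and 10 lower after LPS (65.4%, against 63.4% of all genes), and 9 higher and 5 lower in LPS+RCMNs against LPS (53.8%, against 59.3%). In LPS+RCMNs against control 2 were called higher and 1 lower (11.5%, against 7.56%). The receptor chain Ifnar1 fell by 0.91 ± 0.11 after LPS (adjusted p = 9.94e-05) and rose by 0.90 ± 0.11 from LPS to LPS+RCMNs (adjusted p = 0.000124). Neither was called once the gene length trend was removed, at -0.11 (adjusted p = 0.359) and 0.16 (adjusted p = 0.205). Its partner Ifnar2 was called higher after LPS at 0.34, a value that became -0.08 with the gene length trend removed. Ifngr1, the ligand-binding chain of the interferon gamma receptor, was at 76.4 to 82.0 CPM in control, 29.8 and 30.2 CPM in LPS and 46.9 to 50.8 CPM in LPS+RCMNs libraries. The groups did not overlap, with a fall by 1.42 ± 0.09 after LPS (adjusted p = 3.21e-06) and by 0.72 ± 0.08 after LPS+RCMNs (adjusted p = 0.00128).

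Tlr4, the LPS receptor, fell by 2.13 ± 0.28 after LPS (adjusted p = 0.000138) and rose by 1.98 ± 0.27 from LPS to LPS+RCMNs (adjusted p = 0.000231). Both were still called with the gene length trend removed, at -1.29 and 1.19. Ikbke, the kinase IKK-epsilon, rose by 1.18 ± 0.24 after LPS (adjusted p = 0.00195) and fell by 0.96 ± 0.24 from LPS to LPS+RCMNs (adjusted p = 0.00659).

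Socs3, a feedback inhibitor of JAK kinases, rose by 2.46 ± 0.14 after LPS (adjusted p = 1.91e-06) and by 1.48 ± 0.13 after LPS+RCMNs (adjusted p = 0.000452). Cxcl10, a chemokine induced by interferons and by LPS, was at 1.47 to 2.19 CPM in control, 125 and 127 CPM in LPS and 4.51, 5.42 and 5.82 CPM in LPS+RCMNs libraries. Every LPS+RCMNs library was above control and far below LPS. Cxcl10 rose by 6.05 ± 0.17 after LPS (adjusted p = 1.14e-07), fell by 4.58 ± 0.15 from LPS to LPS+RCMNs (adjusted p = 7.8e-07) and was 1.47 ± 0.17 above control there (adjusted p = 0.00151). Its change after LPS was larger than that of any tested interferon-stimulated gene on the list.

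Transcript length moved with the changes, in these genes as in the whole table. The length implied by the authors' counts and FPKM values had a median of 1975 bases for the 28 members called higher after LPS, 3648 bases for the 7 called lower and 4429 bases for the 11 not called. From LPS to LPS+RCMNs the order was the reverse, with 1311 bases for the 11 members called lower and 5132 bases for the 9 called higher. Across the 46 members the Spearman correlation of the log2 fold change with length was -0.62 for LPS against control, 0.72 for LPS+RCMNs against LPS and -0.33 for LPS+RCMNs against control. Across all 11911 genes it was -0.58, 0.59 and -0.09. These correlations are across genes that share the same libraries and are given as a description.

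Calls were recomputed with a length trend, or a length and level surface, removed from each library. Both left 21 of the 28 members called higher after LPS, among them Isg15, Bst2, Isg20, Rsad2, Cmpk2, Rtp4, Gbp2, Usp18 and the 3 IFIT genes called above, and not Irf7, Dhx58, Oas1a, Ifitm2, Ifitm3, Ly6e and Igtp. Of these, Ifitm2 was called lower under both and Ly6e with the surface. Of the 7 called lower, Irf1, Samhd1 and Ifi47 remained, and Adar was called higher under both. Eif2ak2, Herc6 and Parp14, not called before, were also called higher under both. With the trend removed, 26 members were thus called higher and 4 lower after LPS (65.2%, against 45.7% of all genes). With the surface removed, 27 were higher and 5 lower (69.6%, against 43% of all genes). From LPS to LPS+RCMNs, 4 of 11 lower calls remained (Irf9, Oasl1, Isg15 and Tor3a) and 2 of 9 higher calls (Samhd1 and Ifi47). Ifitm2 and Ifitm3 were called in the opposite direction under both and Adar with the surface. Ifih1, Ddx58, Parp9 and Parp14 were newly called lower under both, and Irf7 and Ly6e newly higher. With the trend removed, 6 members were thus higher and 8 lower (30.4%, against 40.5% of all genes). With the surface removed, 6 were higher and 10 lower (34.8%, against 38.8% of all genes). Against control, 12 of 14 calls after LPS+RCMNs remained, without Oas1a and Ifitm2, and Oas3 was newly called higher under both. Each correction gave 14 members called higher there (30.4%, against 7.51% and 8.03% of all genes called in either direction). 

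**Figure D4:**
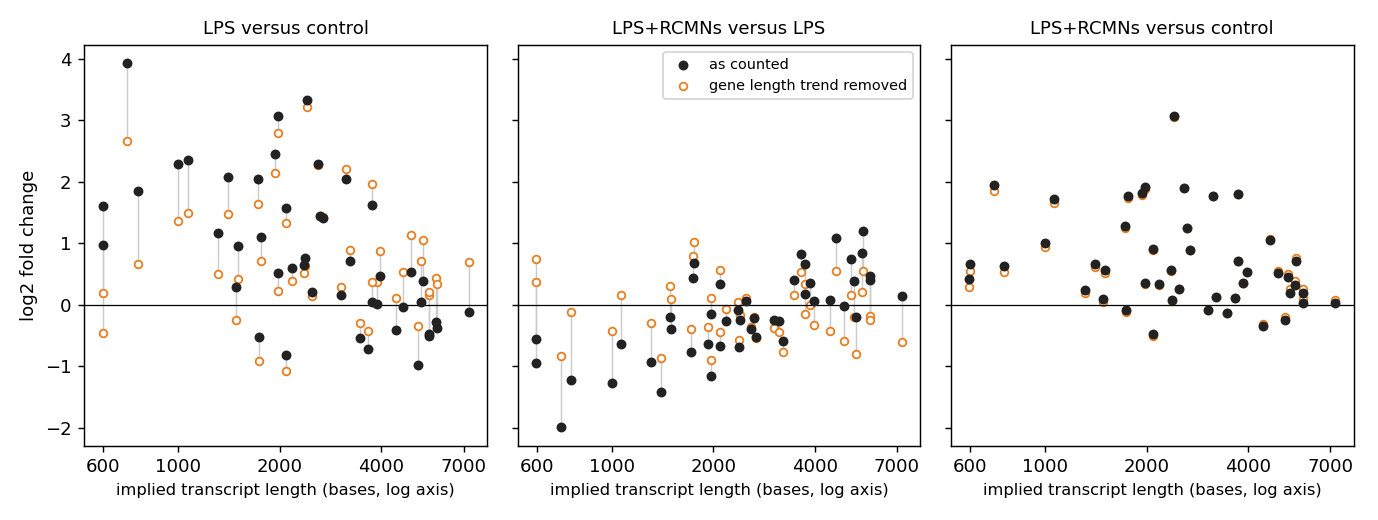
Log2 fold change of the 46 tested members against the implied transcript length in bases (log axis), in each comparison, as counted (filled) and with the gene length trend removed (open), joined by a line. Short transcripts move down in the LPS comparison and up in LPS+RCMNs against LPS, and the points hardly move in LPS+RCMNs against control.

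Members with and without the ISRE letters can be set beside their calls. Among the 21 tested members with the letters, 15 were called higher and 1 lower after LPS, with a median log2 fold change of 0.96. Among the 17 tested members with a window and without the letters, 8 were called higher and 6 lower, with a median of 0.20. After LPS+RCMNs, 10 of the 21 and 3 of the 17 were called higher than control, with medians of 0.67 and 0.32. From LPS to LPS+RCMNs, 4 of the 21 were called higher and 5 lower, and 5 of the 17 higher and 5 lower. Over all genes, 31.4% were called higher and 32.1% lower after LPS. From LPS to LPS+RCMNs these shares were 29.8% and 29.5%, and 4.33% were called higher in LPS+RCMNs than in control. The calls in this paragraph were made without removal of the gene length trend. The difference between members with and without the letters was not tested.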

How the data were processed

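Poly(A)-selected RNA of 8 MH-S libraries was measured, 3 control, 2 LPS and 3 LPS+RCMNs, grouped by their GEO titles. The authors deposited 1 table with estimated counts (expected counts) and FPKM values per gene and library, per the file headers, and 77.8% of the counts above 0 were not whole within 0.001. FastQC is named in the series' design text and mm10 in the submitters' processing notes. The aligner, counter, annotation and strand setting were not given in the sources used here, and 4 columns of per-sample values whose code no sample carries were not used. Implied transcript length was computed from the counts and FPKM the authors deposited.

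Counts were rounded and filtered with filterByExpr, which left 11911 genes, scaled by TMM and fitted in 1 model of 3 groups with edgeR 4.0.16 (R 4.3.3, quasi-likelihood test, two-sided). P-values were adjusted by Benjamini-Hochberg over all 11911 genes, and a call is an adjusted p below 0.05. CPM are TMM-scaled, and SEs are the absolute log2 fold change divided by the square root of F. Alternatives were DESeq2 1.42.0, limma 3.58.1 on log2(FPKM + 1) and log2(FPKM + 0.1), other filters, size factors, a replicate block, left-out libraries, and loess removal of gene length or of gene length and level. The scripts were tested on simulated data. The members, roles and gene lists were chosen with earlier results of these data known. Full values are given, within each role, for the member with the largest absolute log2 fold change in each comparison and for the member with the highest mean FPKM, which makes 21 members. Other members given in full, such as Bst2, Usp18, Samhd1, Ifit1 and Ifit3, were chosen after their values were seen, as were the pathway genes named with values and the promoter stretches printed. Gene coordinates and promoters are from RefSeq (GRCm38.p6), and all 50 genes matched by gene ID. No promoter window was used for Dhx58, Zbp1, Oas2, Usp18, Parp9, Parp14, Ly6e, Rtp4, Iigp1 and Tor3a. A pathway gene and a marker gene are not reported here and were left out of the list counts and sums.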

Additional observations from a re-analysis of the deposited data

How the results depend on the processing

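The LPS group has 2 libraries, so its spread is borrowed from the other groups, and genes near 3 counts cannot show a difference at this depth. Across 860 recomputed values of single members in each comparison, 779 kept their side of the threshold for LPS against control. For LPS+RCMNs against LPS 751 did, and for LPS+RCMNs against control 758. Called values among these also kept their direction, whereas for values not called before or after, the sign was not considered. Leaving out 1 control or LPS+RCMNs library at a time gave 24 to 29 members called higher and 7 to 8 lower after LPS. Of the members 67.4% to 80.4% were then called, against 57.7% to 66.6% of all genes. In LPS+RCMNs against LPS 6 to 13 were higher and 10 to 12 lower (37% to 52.2%, against 51.1% to 64.7%). In LPS+RCMNs against control 7 to 23 were higher and 0 lower (15.2% to 50%, against 2.59% to 11.5%). Leaving out an LPS library leaves 1 in that group, so only the members' median log2 fold changes are given. After LPS they were 0.66 and 0.63 without LPS replicate 1 or 2, and in LPS+RCMNs against LPS -0.09 and -0.21.

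Members called higher than control after LPS+RCMNs numbered 9 with only the 2 groups compared (19.6%, against 5.03% of all genes called in either direction). When 2 or more libraries had to reach 5 FPKM, fewer members were tested and 9 were called (28.1% of these, against 8.43%). Limma on log2(FPKM + 1) or log2(FPKM + 0.1) gave 9 (19.6%, against 8.16% and 7.4%). DESeq2 gave 19 (41.3%, against 11.6%). Without both libraries that stood apart there were 35 (76.1%, against 25.3%). The replicate block gave 8 (17.4%, against 3.81%). Deviations from the group means correlated at -0.339 to 0.197 between same-numbered libraries. With 2 or 3 libraries in a group, these correlations cannot settle whether the numbers pair the libraries. With the block the other counts were 28 higher and 7 lower after LPS (76.1%, against 56.9% of all genes). In LPS+RCMNs against LPS they were 7 higher and 11 lower (39.1%, against 51.9% of all genes). The FPKM filter, with fewer genes tested, left 17 members called higher and 7 lower after LPS (75% of the members tested, against 71% of all genes). Without both libraries that stood apart 15 were higher and 14 lower in LPS+RCMNs than in LPS (63%, against 73.4% of all genes). Over all genes, calls for LPS+RCMNs against control numbered 901, against 454 with the block, 3013 without both libraries, 351 and 309 without LPS+RCMNs replicate 1 or 3, 1370 without replicate 2, 411 and 451 without control replicate 3 or 2, and 1379 with DESeq2.

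On FPKM with limma, LPS+RCMNs against LPS had 15 members higher and 7 lower with either pseudocount, with a median of 0.18 (pseudocount 1) and 0.21 (pseudocount 0.1). These were 47.8% of the members, against 63.5% and 64.9% of all genes called. After LPS, 19 were higher and 11 lower with the pseudocount 0.1 (65.2%, against 68.5% of all genes). Among values called originally or when recomputed, the signs reversed with pseudocounts 1 and 0.1 for Ifih1 (-0.0647, -0.0803) and Ly6e (-0.1682, -0.1689) after LPS. From LPS to LPS+RCMNs they did so for Oas1a (0.0269, 0.0271).

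With the gene length trend removed, 26 members were higher and 4 lower after LPS (65.2%, against 45.7% of all genes). The sign reversals that follow are those where the original or the recomputed value was called. Reversals between values that were both not called are left out. Signs reversed after LPS, with the trend and then the length and level surface removed, for Eif2ak2 (0.4359, 0.4759), Adar (0.3409, 0.3816), Trim25 (0.1651, 0.0406), Parp14 (0.6886, 0.907), Ifitm2 (-0.4545, -0.7077), Ly6e (-0.2567, -0.6478) and Ifnar2 (-0.0789, -0.216), and for Ifitm3 with the surface (-0.1393). They reversed from LPS to LPS+RCMNs for Eif2ak2 (-0.1872, -0.2695), Adar (-0.2549, -0.3412), Oas1a (0.0936, 0.2227), Parp14 (-0.6135, -0.8029), Ifitm2 (0.7489, 1.0298), Ifitm3 (0.3652, 0.711) and Ly6e (0.3058, 0.6436), and with the surface for Bst2 (0.012) and Ifnar2 (0.317). Tlr4 turned to 0.3294 in LPS+RCMNs against control without both libraries that stood apart. Beyond the smaller number of genes or libraries where that was the change made, the cause was not tested.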
